A study of Mus musculus with 22 samples.

Results

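Tpm1 encodes α-tropomyosin, a coiled-coil protein that lies along actin filaments. The gene is a classic case of alternative splicing that ends in alternative last exons, each with its own poly(A) site. Striated muscle uses an upstream last exon, and smooth muscle and non-muscle cells use the last exon of the gene. The ends described here were all RNA 3′ ends listed on the minus strand of chromosome 9 between positions 66869000 and 66898000 of the mm9 genome, where "upstream" means nearer the start of the gene. Of 612268 positions listed over 20 libraries, 103 lay in this interval. Merging positions within 24 nt left 95 ends, of which 5 held at least 1% of the interval's reads in the mean of at least 1 group. The gene was selected on its measured end shares in differentiated and proliferating C2C12 cells, with its pattern over the other groups also known. The contrast of differentiated and proliferating cells is therefore given as a description without a test. The p-values of the other contrasts cannot be taken as independent of the choice.

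The ends were measured by 3′READS, a method that reads RNA from its poly(A) tail inward and so counts reads by 3′ end. There were 10 groups of 2 libraries each from mouse cell lines labelled as strain C57BL/6. C2C12 myoblasts were labelled differentiated (diff) or proliferating (pro), with no day or medium given for these libraries. C2C12 cells labelled siPcf11 and C2C12 controls (Ctrl) were each sampled as total RNA and as the RNA made while 50 µM 4sU (4-thiouridine, which cells build into new RNA) was present, for 1 h. NIH3T3 fibroblasts labelled siPcf11 were set against NIH3T3 Ctrl cells, and 4T1 cells, a mammary carcinoma line, with the label Pcf11-IPAKO against their Ctrl. A further 2 libraries were RNA-seq of 3T3-L1 preadipocytes, 1 labelled siPcf11 and 1 Ctrl. PCF11 takes part in cutting and polyadenylating the nascent RNA and in ending transcription, and the study asked how it shapes poly(A) site choice. Controls carry the label untreated and no control siRNA is named, so a response to transfection itself cannot be told apart from a response to Pcf11. Pcf11-IPAKO stands for deletion of the intronic poly(A) site of Pcf11, which is not a knockdown of Pcf11. The labels do not say whether the Pcf11-IPAKO cells are 1 clone. The total RNA libraries carry the word input in their titles, and the labels do not say whether each is the input of the 4sU library with its number. Nor do they tie libraries of 1 group to separate cultures. The p-values thus rest on the spread among these particular libraries, and that spread may be technical.

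The 20 libraries held 1887532 to 4432717 reads, and the Tpm1 interval 346 to 9139 reads. The 3′READS tables pair no gene name with a position, and Pcf11 and marker genes of muscle, fibroblast or epithelium were not analysed in those libraries. RefSeq places Tpm1 on chromosome 9 and lists 10 curated transcripts for it, but in another genome build, so no exon is assigned here to an end. The siPcf11 NIH3T3 libraries stood apart from each other. With both, edgeR called the level of 0 of 13576 site groups in NIH3T3 (2270 had an unadjusted p under 0.05, and DESeq2 called 338 of 7522). Without siPcf11 replicate 1 it called 4881 and without siPcf11 replicate 2 it called 1767, but then the spread comes from the Ctrl pair alone and the lone siPcf11 library is assumed to vary likewise. Without either Ctrl library, where the siPcf11 pair sets the spread, it called 0. NIH3T3 results are given with and without each library, on that footing.

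The reads fell into an upstream cluster and a downstream cluster. The major upstream end lay at chr9:66875781 and had 9869 reads over all libraries. The minor upstream end, 82 nt further downstream at chr9:66875699, had 4343 reads. The major downstream end, at chr9:66870397 and 5384 nt from the major upstream end, had 54827 reads. The minor downstream end lay 689 nt before it at chr9:66871086 and had 1555 reads. A rare downstream end at chr9:66871656 had 39 reads in 6 libraries, and its mean share passed 1% only in siPcf11 NIH3T3 cells. The other 90 ends shared 227 of 70860 reads, or 0.320%, and 53 of them had 1 read each. The highest group mean share among them was 0.380%, against 2.17% for the rare downstream end that was kept. At the borders of the interval the ends were sparse. The last position inside on the downstream side, 66869097, had 1 read, as had the first outside it, 66868810. On the upstream side the last inside, 66896916, had 3 reads and the first outside, 66902773, had 1.

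In differentiated C2C12 cells most Tpm1 RNA ended upstream, and in every other group it ended downstream. Both upstream ends together held 75.2% and 79.4% of the Tpm1 reads in the differentiated libraries, against 2.13% and 1.90% in the proliferating libraries. The groups did not overlap. Wilson 95% intervals cover counting error only and leave out the spread between libraries. As PCR copies are not separate molecules, they may be too narrow even for counting error. The intervals were 74.2% to 76.1% and 78.6% to 80.2% for the differentiated libraries. They were 1.77% to 2.57% and 1.60% to 2.26% for the proliferating libraries. Of the same reads, the major downstream end held 23.4% and 19.3% in differentiated cells, against 93.9% and 94.8% in proliferating cells. These values chose the gene and were not tested. As background, edgeR called a change in use at 5.64% of the 20148 sites tested between these groups.

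Levels are given in CPM, the reads at an end scaled to the library's total. Reads at the major upstream end came to 1095 and 1115 CPM in differentiated cells, against 27.6 and 21.5 CPM in proliferating cells. At the minor upstream end the level was 465.3 and 522.5 CPM in differentiated cells, against 5.52 and 9.37 CPM in proliferating cells. Both upstream ends were therefore high together in the same libraries. The major downstream end was lower in differentiated cells, with 485.7 and 397.3 CPM, against 1458 and 1539 CPM in proliferating cells. Its minor neighbour was at 27.9 and 22.8 CPM in differentiated cells, against 58.6 and 48.6 CPM in proliferating cells. Summed over the interval the level was 2076 and 2062 CPM in differentiated cells, against 1553 and 1624 CPM in proliferating cells, so the sum differed less than either upstream end. As background, edgeR called the level of 56.0% of 19287 sites and 62.4% of 11682 site groups between these groups. In these bulk libraries, fewer cells of a type and less RNA per cell cannot be told apart.

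**Figure D1:**
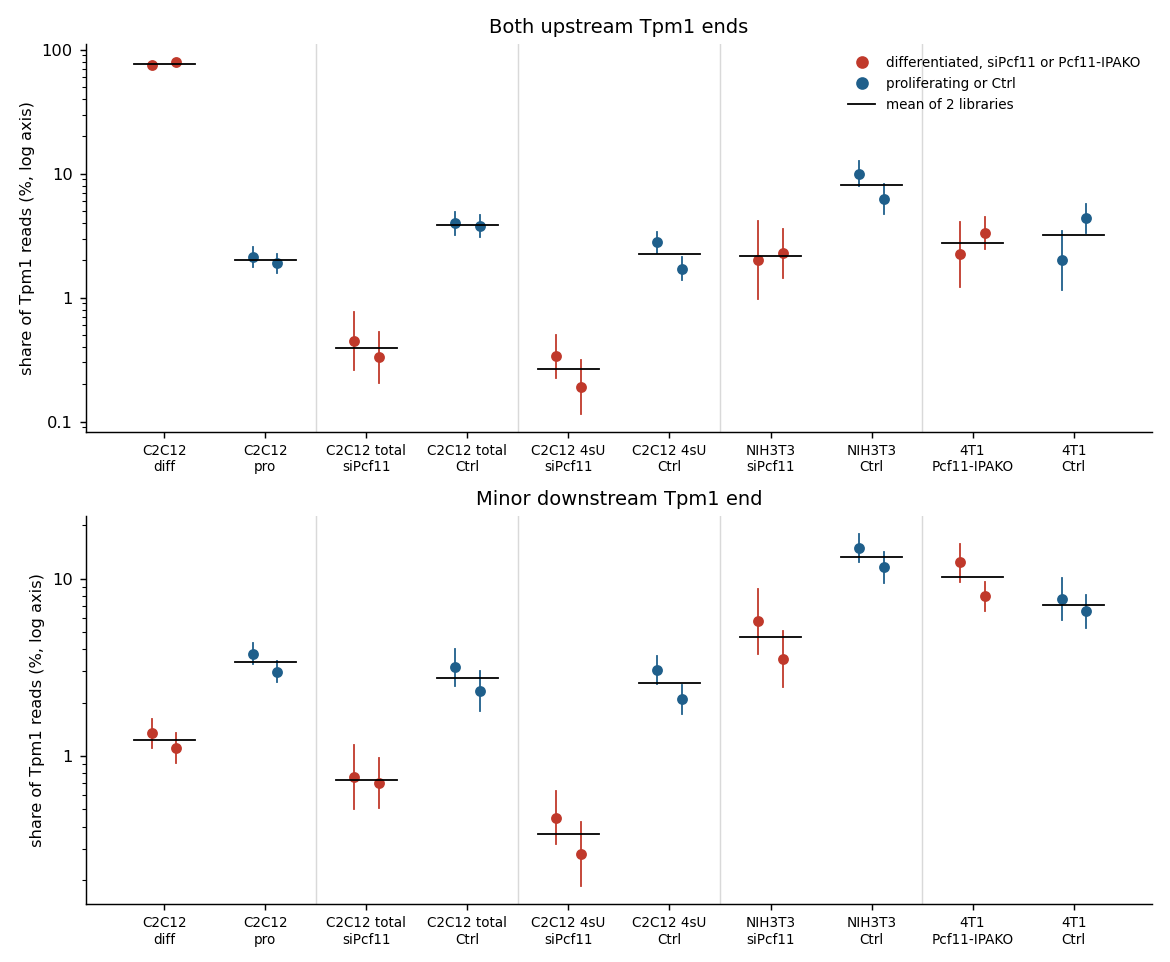
Share of Tpm1 reads at both upstream ends (top) and at the minor downstream end (bottom) in each of 20 libraries, in percent on log axes; points are libraries with Wilson 95% intervals and black lines are means of 2 libraries. The differentiated libraries stand at 75.2% and 79.4% upstream, and the siPcf11 libraries of C2C12 and NIH3T3 lie below their Ctrl libraries in both panels.

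Among the 10 groups, the mean upstream share was 77.3% ± 3.01 in differentiated C2C12 cells (SD, n = 2) and 8.12% ± 2.67 in NIH3T3 Ctrl cells, the next in order. C2C12 Ctrl total RNA followed with 3.89% ± 0.129 and did not overlap NIH3T3 Ctrl. From there down to proliferating C2C12 cells (2.02% ± 0.166), each group overlapped the next in order, a run that held both 4T1 groups, 4sU RNA of C2C12 Ctrl and siPcf11 NIH3T3 cells. The lowest were siPcf11 C2C12 cells, with 0.391% ± 0.0843 in total RNA and 0.264% ± 0.104 in 4sU RNA, which overlapped each other. The order of the summed level was another. It was highest in siPcf11 C2C12 4sU RNA, at 3507 ± 353.8 CPM, and lowest in siPcf11 NIH3T3 cells, at 165.2 ± 58.4 CPM. The 4T1 and NIH3T3 groups all lay below every C2C12 group. In these orders, cell line cannot be told apart from experiment, and 4sU RNA stands beside total RNA. Proliferating C2C12 cells and C2C12 Ctrl total RNA, neither labelled siPcf11, also differed without overlap. Their summed levels were 1588 ± 50.0 and 938.2 ± 25.6 CPM, and their upstream shares 2.02% and 3.89%.

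In total RNA of C2C12 cells, siPcf11 went with less use of both upstream ends and of the minor downstream end. The major upstream end held 0.381% and 0.272% of Tpm1 reads in siPcf11 cells, from 11 and 14 reads, against 3.41% and 2.83% in Ctrl cells, from 71 and 67 reads. Its minor neighbour held 0.0693% and 0.0584% in siPcf11 cells, from 2 and 3 reads, against 0.576% and 0.971% in Ctrl cells, from 12 and 23 reads. Downstream, the minor end held 0.762% and 0.701% in siPcf11 cells, against 3.17% and 2.32% in Ctrl cells. None of the 3 overlapped between the groups. With 2 libraries a group this is weak by itself, as an exact two-sided permutation test cannot go below 0.333. The share of all sites without overlap was not counted. The same holds wherever groups are said not to overlap. The test of use compares the change of an end with that of all Tpm1 reads, over 25270 sites of which 6.17% were called. The log2 change in use was -3.28 ± 0.34 (SE) for the major upstream end (edgeR adjusted p = 4.80e-19). It was -3.58 ± 0.64 for the minor upstream end (adjusted p = 2.30e-06) and -1.89 ± 0.29 for the minor downstream end (adjusted p = 1.65e-08). Nearly all reads ended at the major downstream end, which thus sets the gene's own change, and its use was not called, at 0.08 ± 0.14.

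The same 3 ends were lower in level too, while the major downstream end was higher. Reads at the major downstream end stood at 1509 and 2066 CPM in siPcf11 cells, against 852.5 and 892.9 CPM in Ctrl cells. Upstream, the major end was at 5.83 and 5.70 CPM in siPcf11 cells, against 31.3 and 27.1 CPM in Ctrl cells. The groups did not overlap at either end, and edgeR called 47.1% of 17014 sites. The log2 change in level was 1.20 ± 0.12 at the major downstream end (adjusted p = 1.26e-20) and -2.16 ± 0.33 at the major upstream end (adjusted p = 2.59e-09). At the minor upstream end the level fell by 2.46 (SE 0.64, adjusted p = 5.87e-04). For the minor downstream end it fell by 0.77 (SE 0.28, adjusted p = 0.0145), and this call was lost without either siPcf11 library (adjusted p = 0.165 without replicate 1 and 0.0597 without replicate 2), without Ctrl replicate 1 (0.192) and with no filter on low counts (0.130). Summed, Tpm1 stood at 1530 and 2093 CPM in siPcf11 cells, against 920.1 and 956.3 CPM in Ctrl cells. Its log2 change was 1.12 ± 0.11 (adjusted p = 8.49e-19), where 51.5% of 11095 site groups were called. TMM scaling raised log2 changes of level by 0.17 here, relative to library totals.

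**Figure D2:**
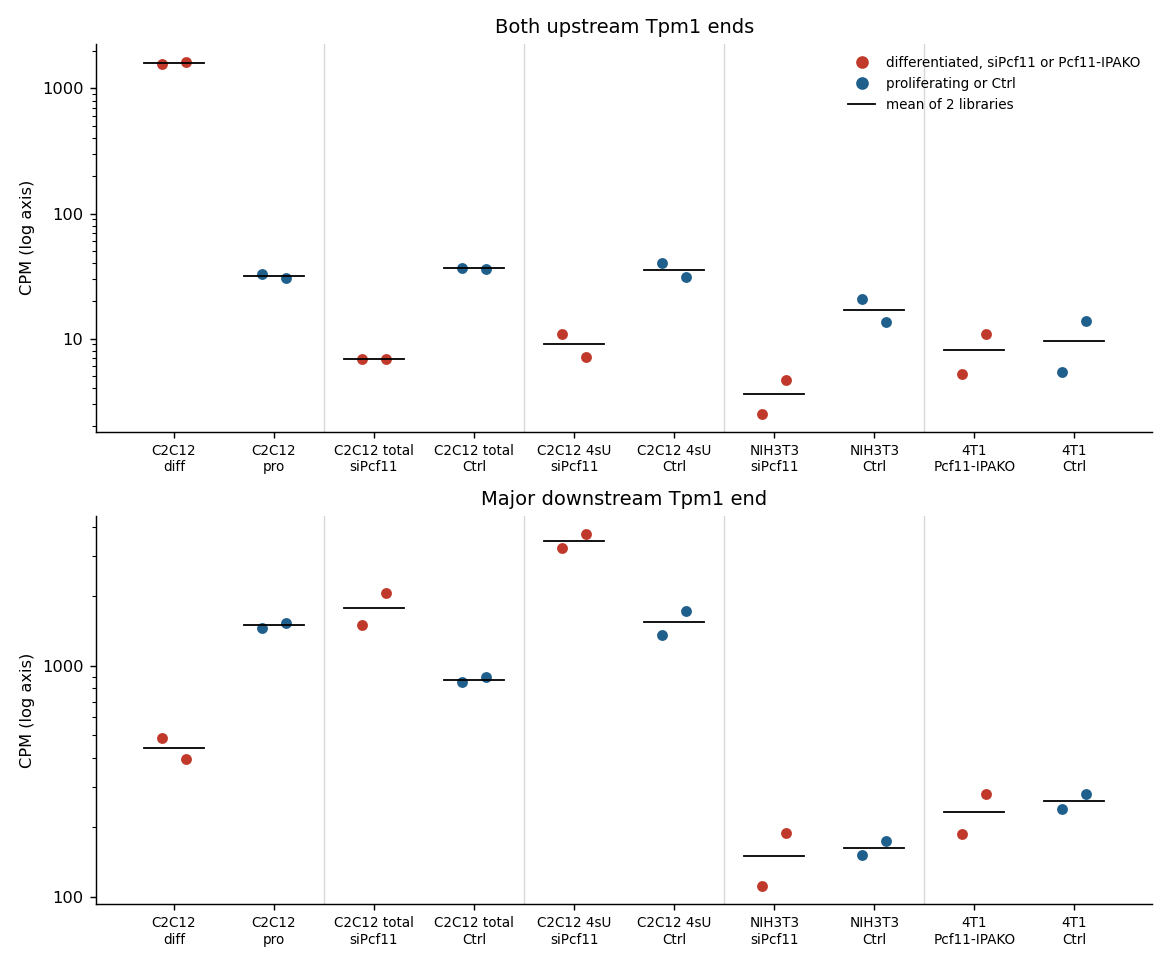
Level in CPM (log axes) at both upstream Tpm1 ends summed (top) and at the major downstream end (bottom) in each of 20 libraries; points are libraries and black lines are means of 2. In C2C12 total and 4sU RNA the siPcf11 libraries lie below Ctrl in the top panel and above Ctrl in the bottom panel, and differentiated cells lie above proliferating cells in the top panel and below them in the bottom panel.

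RNA labelled with 4sU holds recently made transcripts, and the same 3 ends were used less there in siPcf11 cells. The major upstream end held 0.183% and 0.102% of Tpm1 reads in siPcf11 cells, from 13 and 8 reads, against 2.06% and 1.10% in Ctrl cells, from 77 and 53 reads. For the minor upstream end the share was 0.155% and 0.0889% in siPcf11 cells, against 0.724% and 0.604% in Ctrl cells. For the minor downstream end it was 0.450% and 0.279% in siPcf11 cells, against 3.06% and 2.08% in Ctrl cells. Again none of the 3 overlapped. Use changed by a log2 of -3.44 ± 0.35 at the major upstream end (edgeR adjusted p = 2.83e-19), -2.44 ± 0.46 at the minor upstream end (adjusted p = 1.37e-05) and -2.80 ± 0.27 at the minor downstream end (adjusted p = 1.57e-21). Of 25270 sites, 4.93% were called.

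In level, the major downstream end was at 3228 and 3733 CPM in siPcf11 4sU RNA, against 1367 and 1738 CPM in Ctrl 4sU RNA. Its level rose by a log2 of 1.46 ± 0.12 (edgeR adjusted p = 1.19e-28), with 47.1% of 17014 sites called. Upstream, the major end was at 5.95 and 3.82 CPM in siPcf11 4sU RNA, against 30.0 and 20.0 CPM in Ctrl, and fell by 2.04 (SE 0.35, adjusted p = 9.95e-08). Reads at the minor downstream end came to 14.6 and 10.5 CPM in siPcf11 4sU RNA, against 44.4 and 37.7 CPM in Ctrl, and fell by 1.41 (SE 0.26, adjusted p = 1.06e-06). At the minor upstream end the level fell by 1.05 (SE 0.46, adjusted p = 0.0473). That call was lost when any 1 of the 4 libraries compared was left out (adjusted p from 0.0504 to 0.246) and with no filter on low counts (0.268). The summed level was 3257 and 3757 CPM in siPcf11 4sU RNA, against 1454 and 1808 CPM in Ctrl 4sU RNA. The log2 change of the sum was 1.41 ± 0.11 (adjusted p = 4.63e-27, with 53.5% of 11095 site groups called), and TMM scaling had raised it by 0.31.

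**Figure D3:**
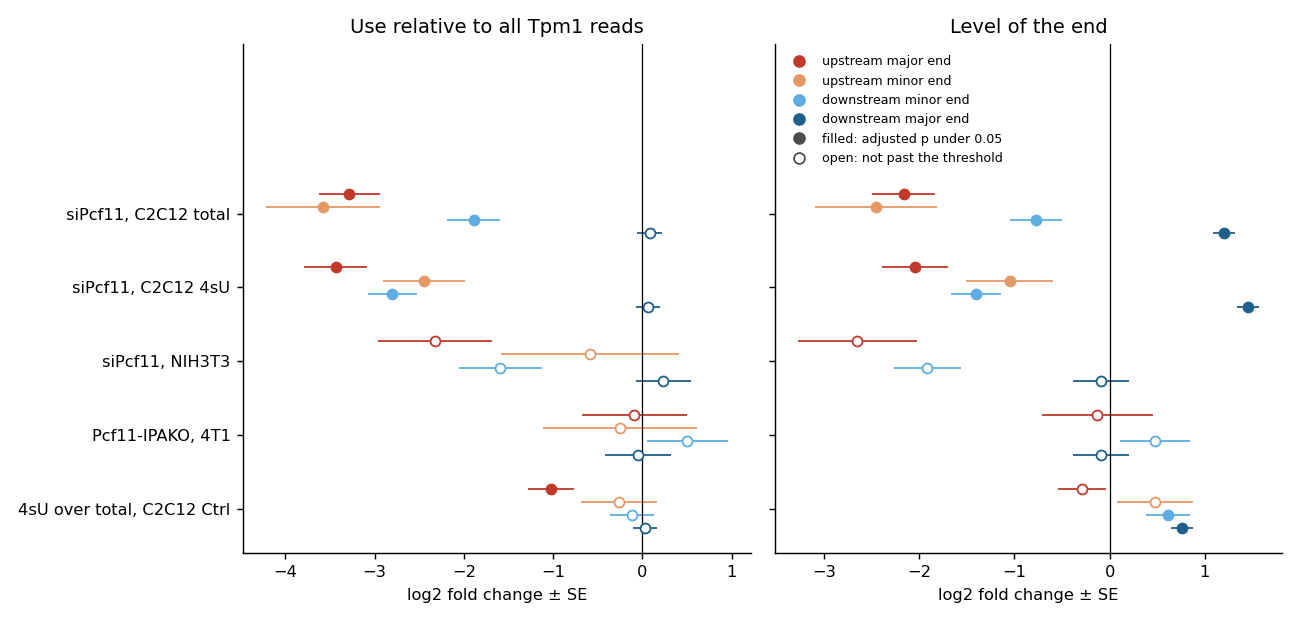
Log2 change ± SE in use (left) and level (right) of 4 Tpm1 ends in 5 comparisons, from edgeR's quasi-likelihood tests; filled points have an adjusted p under 0.05 and an end without enough reads has no point. Both upstream ends and the minor downstream end lie left of 0 in siPcf11 C2C12 cells, whereas no end passed the threshold in NIH3T3 or 4T1.

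The size of the response was not shown to differ between 4sU and total RNA. The difference of the log2 responses, 4sU minus total RNA, was -0.16 ± 0.55 for use of the major upstream end and -0.91 ± 0.42 for use of the minor downstream end (edgeR adjusted p = 1.00 for both). The background was 0.00791% of 25270 sites. For the summed level the difference was 0.29 ± 0.15 (adjusted p = 0.447, with 0.838% of 11095 site groups called). For the level of the major downstream end it was 0.25 ± 0.16 (adjusted p = 0.651, with 0.488% of 17014 sites called). At the minor upstream end, which had few reads, the difference was 1.13 ± 0.86 for use and 1.41 ± 0.83 for level (adjusted p = 0.609 for level). Neither was called. The responses in 4sU and in total RNA both passed the threshold in their own comparison, and each has its own Ctrl libraries.

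Among Ctrl cells, 4sU RNA was set against total RNA. The summed level was 1454 and 1808 CPM in 4sU RNA, against 920.1 and 956.3 CPM in total RNA, a log2 change of 0.72 ± 0.11 (edgeR adjusted p = 1.56e-08, with 27.8% of 11095 site groups called). The major downstream end rose by 0.76 ± 0.12 (adjusted p = 8.73e-09) and the minor downstream end by 0.61 ± 0.23 (adjusted p = 0.0379), where 21.6% of 17014 sites were called. The call at the minor downstream end was lost when any 1 of the 4 libraries was left out (adjusted p from 0.0529 to 0.352) and with no low-count filter (0.209). Reads at the major upstream end were at 30.0 and 20.0 CPM in 4sU RNA, against 31.3 and 27.1 CPM in total RNA. Its share was 2.06% and 1.10% in 4sU RNA, against 3.41% and 2.83% in total RNA, without overlap. Its use fell by a log2 of 1.03 (SE 0.26, adjusted p = 0.0143), where 0.898% of sites were called. The fall in use was not called without Ctrl total replicate 1 (adjusted p = 0.476), without Ctrl total replicate 2 (0.0642), without Ctrl 4sU replicate 2 (log2 -0.59, 1.00) or with no low-count filter (0.170).

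In NIH3T3 fibroblasts, where Tpm1 was read far less, the upstream and minor downstream shares were also lower in siPcf11 cells. The major upstream end held 0.867% and 1.52% of Tpm1 reads in siPcf11 cells, from 3 and 12 reads, against 8.78% and 4.71% in Ctrl cells, from 57 and 34 reads. Downstream, the minor end held 5.78% and 3.54% in siPcf11 cells, against 14.9% and 11.6% in Ctrl cells. Neither overlapped between the groups, but with all 4 libraries neither passed the test. Use of the major upstream end changed by a log2 of -2.33 ± 0.64 (edgeR adjusted p = 0.280) and of the minor downstream end by -1.59 ± 0.46 (adjusted p = 0.322), with 0.0284% of 17633 sites called. With the spread taken from the Ctrl pair alone, the change at the major upstream end was -2.12 without siPcf11 replicate 1 (adjusted p = 0.0107) and -2.91 without siPcf11 replicate 2 (0.0394). With the spread taken from the siPcf11 pair alone it was -1.84 without Ctrl replicate 1 and -2.73 without Ctrl replicate 2 (adjusted p = 1.00 for both). Use of the minor downstream end changed by -1.89 without siPcf11 replicate 1 (0.00162), by -1.20 without siPcf11 replicate 2 (0.185) and by -1.40 and -1.76 without Ctrl replicates 1 and 2 (1.00 for both). For the minor upstream end the share was 1.16% and 0.759% in siPcf11 cells, against 1.23% and 1.52% in Ctrl cells. The rare downstream end held 2.31% and 2.03% in siPcf11 cells, from 8 and 16 reads, against 1.23% and 0.693% in Ctrl cells, from 8 and 5 reads, and its use was not called (adjusted p = 1.00). This end was kept only through its mean share in siPcf11 NIH3T3 cells, so a higher share there is partly set by that filter.

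In level, the major downstream end was at 111.4 and 188.7 CPM in siPcf11 NIH3T3 cells, against 151.8 and 175.3 CPM in Ctrl NIH3T3 cells, so the siPcf11 libraries lay on either side of both Ctrl libraries. Upstream, the major end was at 1.07 and 3.14 CPM in siPcf11 cells, against 18.1 and 10.2 CPM in Ctrl, a log2 change of -2.65 ± 0.62 (edgeR adjusted p = 0.168, with 0.0% of 18877 sites called). It was -2.17 without siPcf11 replicate 1 (adjusted p = 1.88e-04) and -3.62 without siPcf11 replicate 2 (6.87e-06), both with the spread of the Ctrl pair alone, and -2.19 and -3.06 without Ctrl replicates 1 and 2 (1.00 and 0.307). With no low-count filter and all 4 libraries it was called (-2.74, 0.00176). For the minor downstream end the level was 7.16 and 7.32 CPM in siPcf11 cells, against 30.9 and 25.2 CPM in Ctrl cells, a change of -1.92 ± 0.35 (adjusted p = 0.155). Its adjusted p was 2.63e-06 and 7.46e-05 without siPcf11 replicates 1 and 2, 0.95 and 0.418 without Ctrl replicates 1 and 2, and 0.00144 with no low-count filter. The summed level was 123.9 and 206.4 CPM in siPcf11 cells, against 206.5 and 216.7 CPM in Ctrl cells, a change of -0.34 ± 0.27 (adjusted p = 0.591, with 0.0% of 13576 site groups called). It was -0.058 without siPcf11 replicate 1 (adjusted p = 0.842) and -0.73 without siPcf11 replicate 2 (0.00196), and -0.36 and -0.37 without Ctrl replicates 1 and 2 (1.00 and 0.982).

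A fit of C2C12 total RNA and NIH3T3 together, added after the data were seen, tested whether the siPcf11 response differed between the cell lines. For use of the major upstream end, the response in C2C12 minus that in NIH3T3 was -0.99 ± 0.76 (edgeR adjusted p = 1.00, with 0.0111% of 26957 sites called). For use of the minor upstream end, which had few reads, it was -3.00 ± 1.22 (adjusted p = 0.771). For the summed level it was 1.55 ± 0.32 (adjusted p = 0.0286, with 3.5% of 14509 site groups called), as the sum was higher in siPcf11 than in Ctrl C2C12 cells by a log2 of 1.12 and not in NIH3T3 cells (-0.34). This call was lost when any 1 of the 4 C2C12 libraries or of the 2 Ctrl NIH3T3 libraries was left out (adjusted p from 0.0826 to 0.181). The adjusted p was 1.52e-10 without siPcf11 NIH3T3 replicate 1 and 2.14e-21 without replicate 2, where the lone siPcf11 NIH3T3 library is assumed to vary like the other groups. Cell line cannot be told apart here from anything else that differed between the 2 experiments.

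In 4T1 cells, Pcf11-IPAKO and Ctrl libraries overlapped at the upstream ends. The major upstream end held 2.02% and 2.47% of Tpm1 reads in Pcf11-IPAKO cells, from 9 and 32 reads, against 1.51% and 3.36% in Ctrl cells, from 9 and 40 reads. Its use changed by a log2 of -0.09 ± 0.59 (edgeR adjusted p = 1.00, with 0.193% of 21807 sites called). Downstream, the minor end held 12.4% and 7.95% in Pcf11-IPAKO cells, against 7.71% and 6.54% in Ctrl cells, a change in use of 0.50 ± 0.45 (adjusted p = 1.00). The summed level was 231.1 and 330.3 CPM in Pcf11-IPAKO cells, against 269.5 and 317.7 CPM in Ctrl cells, a log2 change of 0.00 ± 0.27 with an adjusted p of 0.999, where 4.15% of 10426 site groups were called. No single end was called in level either, the major upstream end at -0.13 ± 0.58 and the major downstream end at -0.09 ± 0.30, where 2.55% of 15118 sites were called. In share, the major downstream end was lower in Pcf11-IPAKO cells, at 80.9% and 84.7%, against 89.4% and 87.7% in Ctrl cells. The test of its use did not call this, at a log2 change of -0.05 ± 0.37. The ends outside the 5 named held 4.49% and 3.94% of Tpm1 reads in Pcf11-IPAKO cells, from 20 and 51 reads, against 0.838% and 1.43% in Ctrl cells, from 5 and 17 reads. Most lay upstream of the major upstream end, with 15 and 41 reads in Pcf11-IPAKO cells, against 4 and 13 in Ctrl cells. The Pcf11-IPAKO libraries listed more positions over the whole genome too, 105666 and 203899 against 53146 and 97285 in Ctrl, and the part of this in the result was not tested.

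Within each cluster, the split between major and minor end differed between groups as well. Downstream, the minor end took 0.766% and 0.705% of the downstream reads in siPcf11 C2C12 total RNA, against 3.30% and 2.43% in Ctrl. In 4sU RNA it took 0.452% and 0.280% in siPcf11 cells, against 3.15% and 2.12% in Ctrl cells. In NIH3T3 it took 5.90% and 3.66% in siPcf11 cells, against 16.7% and 12.5% in Ctrl cells. In differentiated C2C12 cells it took 5.43% and 5.42%, against 3.86% and 3.06% in proliferating cells, so in differentiated cells the minor end was a larger part of a smaller downstream cluster. Upstream, the minor end took 29.8% and 31.9% of the upstream reads in differentiated cells, against 16.7% and 30.4% in proliferating cells, where the 2 libraries spread widely on 108 and 125 reads. In C2C12 total RNA it took 15.4% and 17.6% in siPcf11 cells, on 13 and 17 reads, against 14.5% and 25.6% in Ctrl cells, with overlap. In 4sU RNA it took 45.8% and 46.7% in siPcf11 cells, on 24 and 15 reads, against 26.0% and 35.4% in Ctrl cells. These splits are descriptions and were not tested.

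To place the Tpm1 shift, the 2 most read sites of every site group with at least 20 reads in each library were taken as a pair, which gave 3492 pairs besides Tpm1. In this pair the upstream share of Tpm1 was 0.330% ± 0.0773 (SD, n = 2) in siPcf11 C2C12 total RNA and 3.24% ± 0.428 in Ctrl, a log2 ratio of -3.30. The median log2 ratio of the 3237 other pairs with upstream reads in both groups was -0.04, and 26 of them had a ratio as low. In 4sU RNA the upstream share was 0.143% ± 0.0579 in siPcf11 cells and 1.64% ± 0.716 in Ctrl cells, a ratio of -3.52 and 11 of 3240 pairs were as low. In NIH3T3 it was 1.30% ± 0.480 in siPcf11 cells and 8.09% ± 3.66 in Ctrl cells, a ratio of -2.64 and 64 of 3105 pairs were as low. In 4T1 it was 2.64% ± 0.278 in Pcf11-IPAKO cells and 2.67% ± 1.43 in Ctrl cells, a ratio of -0.02 against a median of 0.03. Pairs whose upstream site was read in Ctrl cells only have no ratio and numbered 131 in C2C12 total RNA, 143 in 4sU RNA, 210 in NIH3T3 and 36 in 4T1. Their upstream share fell to 0, which is lower than any ratio. They are not in the counts of 26, 11 and 64 pairs, so more pairs fell at least as far as Tpm1 than these counts show. In points of percent the C2C12 change was small, at -2.91 in total RNA, and 1676 of 3492 pairs changed as much, as few Tpm1 reads ended upstream in Ctrl cells. In differentiation, which chose the gene, the pair's upstream share was 71.5% ± 3.14 in differentiated and 1.62% ± 0.342 in proliferating cells, and 2 other pairs changed by as many points.

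**Figure D4:**
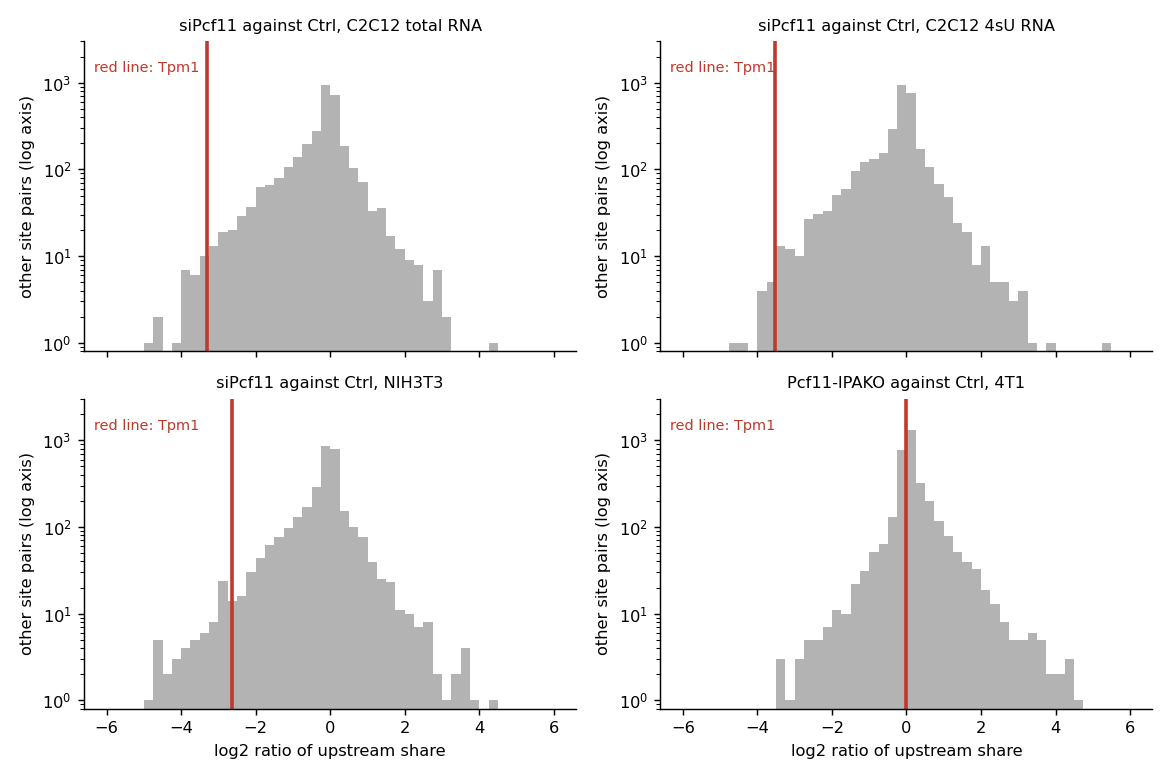
Log2 ratio of the upstream share, siPcf11 or Pcf11-IPAKO over Ctrl, in the pairs of the 2 most read sites of a site group (grey bars, number of pairs on a log axis) with Tpm1 as a red line, in 4 comparisons. Tpm1 lies in the low tail in siPcf11 C2C12 and NIH3T3 cells, at -3.30, -3.52 and -2.64, and in the centre in 4T1 Pcf11-IPAKO cells, at -0.02. Pairs without a ratio are not drawn, among them those whose upstream share fell to 0.

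The 5 pairs whose upstream share followed that of Tpm1 most closely over the 10 group means, in either direction (largest absolute Pearson r), were named by position. In 2 of them the upstream share ran with that of Tpm1 and in 3 it ran opposite to it. At chromosome X, plus strand, the pair 98643930 and 98648880 had a Pearson r of -0.99, with an upstream share of 18.5% in differentiated and 99.6% in proliferating cells. At chromosome 7, plus strand, the pair 19637101 and 19639966 had r = 0.95, with 3.65% in differentiated and 0.255% in proliferating cells. At chromosome 12, plus strand, the pair 25744337 and 25748017 had r = -0.94, with 68.1% in differentiated and 100.0% in proliferating cells. At chromosome 9, minus strand, the pair 36540011 and 36536929 had r = -0.91, with 97.0% in differentiated and 99.0% in proliferating cells. At chromosome 13, minus strand, the pair 55608135 and 55599775 had r = 0.89, with 64.7% in differentiated and 22.7% in proliferating cells. These correlations rest on the differentiated group. Over the other 9 groups r was 0.46, -0.15, 0.54, 0.32 and 0.28 in the same order of pairs. The pair on chromosome 13 was lower in siPcf11 than in Ctrl cells in C2C12 total RNA (13.4% and 25.6%), in C2C12 4sU RNA (15.2% and 28.3%) and in NIH3T3 (16.0% and 21.4%), like Tpm1. So was the pair on chromosome 12, at 93.3% and 100.0%, 93.4% and 100.0%, and 96.7% and 99.5% in the same order. The other named pairs did not share this direction throughout. On chromosome 9 the order was 99.73% and 99.42%, 99.78% and 99.09%, and 99.74% and 99.97%, so siPcf11 was higher in C2C12. The pair on chromosome X was lower in C2C12 but not in NIH3T3 (99.653% and 99.635%). That on chromosome 7 was lower in 4sU RNA (0.0% and 1.06%) and at 0.0% in both groups elsewhere. A lower share in siPcf11 cells was the more common direction. Of the 3492 pairs besides Tpm1, 61.6%, 61.2% and 59.2% were lower in siPcf11 cells in these comparisons. Groups of a cell line share their source, and the correlations are descriptions.

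**Figure D5:**
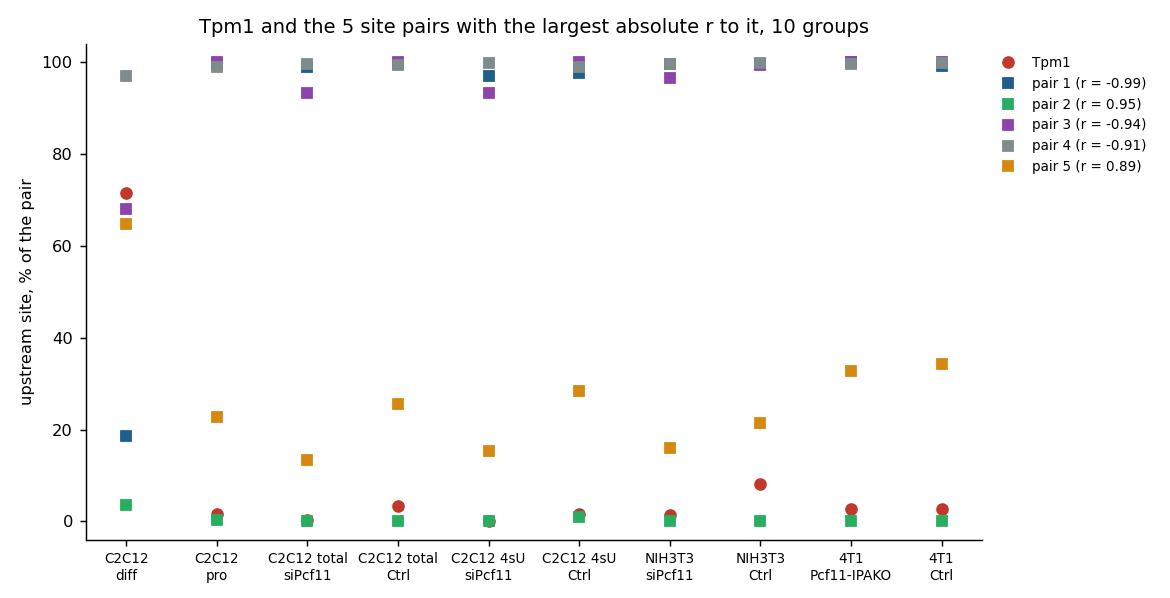
Mean upstream share in percent of the pair, in each of 10 groups of 2 libraries, for Tpm1 (circles) and the 5 site pairs with the largest absolute Pearson r to it (squares, numbered by its size). In pairs 1, 3 and 4 r is negative. The differentiated group stands apart from the other 9 groups in Tpm1, at 71.5%, and in the pairs on chromosomes X, 12 and 13, at 18.5%, 68.1% and 64.7%.

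RNA-seq of 3T3-L1 cells counts reads per gene and cannot tell the ends apart, and with 1 library a group there is no replicate check. The targeted gene was not lower, against the label. Pcf11 had 840 counts (120.1 CPM) in the library labelled siPcf11, against 939 counts (109.5 CPM) in the Ctrl library, a ratio of 1.10 with an exact 95% counting interval of 0.998 to 1.21. The direction of every value from this pair is therefore only that between 2 libraries so labelled. Tpm1 had 10831 counts (1549 CPM) in the library labelled siPcf11, against 10659 counts (1243 CPM) in the Ctrl library, a ratio of 1.25 (1.21 to 1.28, counting error only). Of 9143 genes with at least 100 counts over both libraries, 814 others had a ratio as high, and 5.86% of all 9143 were past 1.5-fold in either direction. Tpm1 was not past it.

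The other tropomyosins bind actin filaments in the same way. None of the 4 was past 1.5-fold between these libraries, where 5.86% of all 9143 genes were. Tpm2 had 154.5 CPM in the library labelled siPcf11, against 199.9 CPM in the Ctrl library (ratio 0.773, 0.715 to 0.834). Tpm3 had 144.4 CPM, against 111.4 CPM in Ctrl (1.30, 1.19 to 1.42), and Tpm4 had 386.7 CPM, against 433.3 CPM in Ctrl (0.892, 0.849 to 0.938). The median log2 ratio of the 4 was 0.08, against -0.03 over all 9143 genes.

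Of 17 proteins that work with tropomyosin on the filament, 10 were listed and 6 had at least 100 counts, 0 of them up and 1 down past 1.5-fold. Over all 9143 genes with at least 100 counts, 161 were up and 375 down past 1.5-fold, 5.86% in all. Lists this short can be near that share with 0 or 1 gene past it. The partner that was down, Tnnt2, the tropomyosin-binding troponin T of cardiac muscle, had 546 counts (78.1 CPM) in the library labelled siPcf11, against 1022 counts (119.2 CPM) in Ctrl (ratio 0.655). Cald1 (caldesmon, an actin- and tropomyosin-binding protein) stood at a ratio of 0.954, Cnn2 (calponin 2) at 1.17, Cnn3 (calponin 3) at 1.03, Tmod3 (tropomodulin 3, which caps filament ends) at 1.12 and Lmod1 (leiomodin 1) at 1.00. Of 18 RNA-binding proteins known to act on splicing of Tpm1 or of muscle exons, 15 were listed and 14 had at least 100 counts, with 0 past 1.5-fold. Ptbp1, the polypyrimidine tract binding protein that represses exons of Tpm1, had 330.5 CPM in the library labelled siPcf11, against 375.6 CPM in Ctrl (0.880). Hnrnph1, an RNA-binding splicing regulator, stood at 0.796, Khsrp, a KH-domain RNA-binding protein, at 0.971, Rbfox2, a splicing regulator, at 0.819, and the SR proteins Srsf3 and Srsf1 at 1.20 and 1.05. The median log2 ratio was 0.02 for the partners and -0.05 for the RNA-binding proteins, against -0.03 over all 9143 genes.

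Cell type markers were read in both libraries. All 6 fibroblast or preadipocyte markers were listed, with a summed level of 23657 CPM in the library labelled siPcf11, against 22970 CPM in Ctrl. Of 6 adipocyte markers only Fabp4 and Pparg were listed (summed 105.7 CPM in the library labelled siPcf11, against 122.0 CPM in Ctrl), and Adipoq, Plin1, Cidec and Cebpa were not. Of 6 skeletal muscle markers, Acta1 and Des were listed (summed 49.1 CPM in the library labelled siPcf11, against 41.2 CPM in Ctrl) and Myod1, Myog, Ttn and Ckm were not. Of 4 smooth muscle markers, Acta2 and Smtn were listed, and Myh11 and Cnn1 were not. Acta2, smooth muscle α-actin, had 2953 CPM in the library labelled siPcf11, against 1987 CPM in Ctrl (ratio 1.49). Smtn had 95.2 CPM in the library labelled siPcf11, against 95.9 CPM in Ctrl (ratio 0.993). Acta2 thus moved in the same direction as Tpm1 and Smtn did not. The part of this in the Tpm1 ratio was not tested. Of 3 macrophage and 4 epithelial markers, 1 each was listed in at least 1 library, Cd68 (5.72 CPM in the library labelled siPcf11, against 6.41 CPM in Ctrl) and Krt8. Krt8 was not listed in the library labelled siPcf11, against 11 counts in Ctrl. A gene missing from a file can have had a few reads, since the lowest count listed is 5.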

How the data were processed

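The deposited 3′READS files give a chromosome, strand, poly(A) position and whole-number read count, and the RNA-seq files a gene symbol and read count. Per the submitters' processing notes, cutadapt, Bowtie2 and STAR were used with genome build mm9; the sources used here give neither their roles and versions nor how sites were called. These deposited counts are whole numbers whose totals differ between libraries, and so were taken as not normalized. The interval, its ends, the tests and the gene lists were chosen with earlier results of these data known.

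Positions of all 20 libraries were merged within 24 nt, most read first. Sites with at least 1 CPM in at least 2 libraries of a fit were kept and chained over gaps of up to 5 kb into site groups, with Tpm1 as 1 group. A site group can hold several genes. Level was tested with edgeR 4.0.16 (R 4.3.3, limma 3.58.1) quasi-likelihood tests. Scaling was by TMM, and filterByExpr removed low rows (minimum count 10). Use was tested with edgeR's diffSpliceDGE, as the log2 change of a site relative to its site group. The 8 C2C12 siPcf11 and Ctrl libraries were fitted together, NIH3T3 and 4T1 each alone. P-values were adjusted by Benjamini-Hochberg over all sites or site groups, with a threshold of 0.05, and SE is the log2 change divided by the root of F. With 2 libraries a group, an exact two-sided permutation test cannot go below 0.333, so none is quoted. Calls past 1.5-fold in RNA-seq need 100 counts. DESeq2 1.42.0 and the settings given in the closing section were alternatives. Scripts used Python 3.11.15, pandas 2.3.3, numpy 2.4.6, scipy 1.17.1 and matplotlib 3.10.9. The tests were also run on simulated counts with the same spread set for every library. That does not cover a pair that stands apart, as the siPcf11 NIH3T3 libraries do.

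Ends named in the text hold at least 1% of the interval's reads in a group mean. Genes named are the listed members with the most counts, at most 6 a list, and the 5 site pairs named have the largest absolute Pearson r with Tpm1.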

Additional observations from a re-analysis of the deposited data

Results flagged for a closer look

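The siPcf11 response of the summed Tpm1 level differed between cell lines by a test of the difference itself, at a log2 of 1.55 ± 0.32 for C2C12 total RNA minus NIH3T3 (edgeR adjusted p = 0.0286). The sum was 1530 and 2093 CPM in siPcf11 C2C12 total RNA, against 920.1 and 956.3 CPM in Ctrl, and 123.9 and 206.4 CPM in siPcf11 NIH3T3 cells, against 206.5 and 216.7 CPM in Ctrl. The fit was added after the data were seen, and leaving out any 1 C2C12 or Ctrl NIH3T3 library gave an adjusted p from 0.0826 to 0.181.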

How the results depend on the processing

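The 2 lower use values (major upstream end) and the 2 higher summed levels of siPcf11 C2C12 cells, in total and 4sU RNA, kept direction and call under every alternative run: DESeq2 size factors, library totals, DESeq2 (levels), no low-count filter, merging within 100 nt, the 2 main ends alone (use), the 4 compared libraries alone, and leaving out each library. Others did not, and the cause was not tested. In Ctrl cells, 4sU against total RNA, use of the major upstream end was -1.02 without the filter (adjusted p = 0.170) and -1.50 to -0.59 with 1 library left out. The difference of the use response, 4sU minus total RNA, was 0.27 with merging within 100 nt and -0.61 to 0.31 with 1 library left out, and that of the summed level -0.070 to 0.45. In NIH3T3, leaving out 1 library gave -2.91 to -1.84 for use and -0.73 to -0.058 for the sum, and in 4T1 -0.48 to 0.68 for use and -0.15 to 0.17 for the sum, which was -0.37 with no low-count filter (adjusted p = 0.690). For C2C12 minus NIH3T3 the summed response was 1.26 to 1.94. Among single ends that had passed no test, signs turned when 1 library was left out. In Ctrl cells, 4sU against total RNA, use ranged from -0.57 to 0.18 at the minor upstream and -0.39 to 0.16 at the minor downstream end. In NIH3T3 the level of the major downstream end ranged from -0.51 to 0.20. In 4T1 the level ranged from -0.63 to 0.70 at the major upstream and -0.31 to 0.11 at the major downstream end, use at the minor upstream end from -1.70 to 0.45, and use of the major downstream end was 0.000589 with the 2 main ends alone. Counts over all sites moved most with the libraries: over the alternatives, use was called at 871 to 1669 sites in C2C12 total RNA, 621 to 1737 in 4sU RNA, 58 to 268 for 4sU against total RNA, 0 to 2007 in NIH3T3 and 3 to 130 in 4T1. Site groups were called at 1560 to 3359 for 4sU against total RNA, 12 to 228 for the difference, 0 to 4881 in NIH3T3, 179 to 1589 in 4T1 and 0 to 3653 for C2C12 minus NIH3T3. The labels do not say that same-numbered libraries share an origin, though total RNA libraries are titled input. Deviations of same-numbered libraries correlated at -0.00609 to 0.0817 in C2C12 and NIH3T3 and at 0.389 in 4T1. With the replicate number as a block, use of the major upstream end was -3.25 in C2C12 total RNA, -3.44 in 4sU RNA, -1.03 for 4sU against total RNA, -0.19 for the difference, -2.28 in NIH3T3, -0.057 in 4T1 and -1.02 for C2C12 minus NIH3T3, and summed levels were 1.10, 1.41, 0.71, 0.31, -0.38, -0.0074 and 1.56 in the same order. The block changed no Tpm1 call. Depth limits the upstream ends, which together have 7 to 24 reads a library in siPcf11 cells and 10 to 52 in 4T1.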
